A study of Mus musculus with 12 samples.

Results

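Kit, Lyl1, Hhex, Erg, Mef2c, Lmo2, Spi1, Bcl11a and Mpzl2 are expressed in the earliest T cell progenitors of the thymus, and T lineage commitment shuts them off. These 9 genes were chosen by symbol from 49997 genes counted in sorted mouse thymocytes, and all 9 have a row in both deposited count tables. The groups were CD4 KO, CD4 WT, DP KO and DP WT, with 3 libraries each. CD4 and DP (double-positive, CD4+ CD8+) are the sorted cell types, KO is the genotype Satb1 KO, made by a tamoxifen-induced knockout, and WT is wild type. All 12 libraries, the WT libraries included, carry the treatment label Tamoxifen, come from primary thymus cells and were made from poly(A) RNA. The labels name no Cre line or promoter, strain, age, deleted part of Satb1 or sorting gate, and they do not state whether the 3 libraries of a group are from different mice. The p-values therefore rest on the spread between these libraries, which may be technical.

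T cells arise in the thymus from multipotent progenitors that first lack CD4 and CD8 (the double-negative, DN, stages), then become DP and finally CD4 or CD8 single-positive. In the earliest DN cells the receptor tyrosine kinase KIT and a set of stem and progenitor cell transcription factors are still present. Notch signalling and commitment factors such as TCF1, GATA3 and BCL11B then silence them, and DP cells normally carry little of their RNA. LYL1, a basic helix-loop-helix protein, and LMO2, a LIM-only adaptor, act together in DNA-bound complexes. HHEX is a homeobox repressor, ERG and PU.1 (the product of Spi1) are ETS factors, MEF2C is a MADS-box factor of lymphoid and myeloid progenitors, BCL11A is a zinc-finger factor of B and dendritic cell lineages, and MPZL2 is an adhesion protein of the immunoglobulin superfamily. Several of them (LYL1, LMO2, MEF2C, HHEX) are known from T cell leukaemia.

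The promoter sequences of Kit, Lyl1 and Hhex are shown because Kit and Lyl1 were called higher in KO cells of both types while Hhex was called lower in CD4 KO cells. They are the bases before the annotated gene start, on the gene's strand, from RefSeq's promoter table in build GRCm38.p6 (mm10), which matched 6 of the 9 genes; Lmo2, Spi1 and Mpzl2 are named only. Capitals mark every match, on either strand, to 1 of 5 motifs: the E-box, spelled CANNTG; the GATA motif, spelled GATAA; the RUNX motif, spelled TGTGGT; an ETS motif of the PU.1 type, spelled GAGGAA; and a further ETS motif, spelled CCGGAA. No 2 matches overlap.
Kit, chr5:75574737-75574986, plus strand: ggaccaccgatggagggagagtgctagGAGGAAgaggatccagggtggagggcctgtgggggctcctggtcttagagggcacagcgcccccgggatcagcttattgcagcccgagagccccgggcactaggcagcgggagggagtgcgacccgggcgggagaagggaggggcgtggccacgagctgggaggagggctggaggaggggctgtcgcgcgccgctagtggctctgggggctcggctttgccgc
Lyl1, chr8:84701207-84701422, plus strand: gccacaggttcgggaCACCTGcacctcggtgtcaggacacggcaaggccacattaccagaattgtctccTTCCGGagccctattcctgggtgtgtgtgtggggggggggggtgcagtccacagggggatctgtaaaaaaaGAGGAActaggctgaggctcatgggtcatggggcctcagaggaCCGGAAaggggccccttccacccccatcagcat
Hhex, chr19:37434591-37434840, plus strand: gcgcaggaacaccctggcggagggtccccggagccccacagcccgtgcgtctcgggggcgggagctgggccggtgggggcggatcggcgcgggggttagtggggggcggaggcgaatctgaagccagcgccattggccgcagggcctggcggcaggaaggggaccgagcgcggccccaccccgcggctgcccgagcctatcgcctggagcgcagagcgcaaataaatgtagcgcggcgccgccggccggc
The Kit window held 1 GAGGAA, which 23.1% of 27025 promoters hold in a window of the same 250 bases. The Lyl1 window of 216 bases held 1 E-box (61.4% of promoters), 1 GAGGAA (20%) and 2 CCGGAA (9.23%). The Hhex window held none of the 5 motifs. All 3 windows were low in A and T, with 29.2% for Kit, 39.4% for Lyl1 and 24.0% for Hhex, against medians over all promoters of 48.0% and, for the shorter Lyl1 window, 48.1%. A match to these letters is a description of the window and not evidence of binding.

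Satb1, the targeted gene, had 1476 to 1581 CPM in CD4 KO, against 2949 to 3501 CPM in CD4 WT, and 2499 to 2908 CPM in DP KO, against 3763 to 3788 CPM in DP WT. CPM are counts scaled to a common library total after TMM normalization over all 12 libraries. The Satb1 decrease was called in both (log2 fold change -1.12 in CD4, adjusted p = 7.89e-06, and -0.56 in DP, adjusted p = 0.000539). Counts are over the whole gene and the deleted part is not named. The source of the Satb1 counts that remained in KO was not tested. Total counts ran from 22790504 (DP WT replicate 3) to 62422640 (CD4 KO replicate 2), and a count of 3, taken as the floor, was worth 0.0475 to 0.131 CPM, for counting error only. No 2 libraries of a group agreed within sampling noise (the chi-square per degree of freedom lay between 15.2 and 50.8), so none was treated as a duplicate. The sorted cells carried T cell transcripts in every library. The 5 T cell markers summed to 2064 to 2237 CPM in CD4 KO, against 2796 to 3017 CPM in CD4 WT, and to 2060 to 2263 CPM in DP KO, against 2744 to 3351 CPM in DP WT. In each cell type 4 of the 5 were called lower in KO and 0 higher, beside 18.6% of all genes lower in CD4 and 14.1% in DP cells. Cd8a was at 156 to 168 CPM in CD4 KO and 61.3 to 151 CPM in CD4 WT, against 1681 to 1733 CPM in DP KO and 2204 to 2676 CPM in DP WT. Of 6 CD4 cell markers, 4 were called lower in CD4 KO and 0 higher. The CD4 lineage regulator Zbtb7b stood at 20.1 to 41.6 CPM in CD4 KO, against 348.7 to 413.7 CPM in CD4 WT. S1pr1 (149.3 to 170.9 and 167.3 to 178.9 CPM) and Klf2 (125.5 to 162.0 and 109.3 to 207.7 CPM) overlapped. The 8 DP markers summed to 2895 to 3429 CPM in CD4 KO, against 1493 to 1959 CPM in CD4 WT. Of these 8, 6 were called higher in CD4 KO and 1 lower, beside 20.9% and 18.6% of all genes. Cd4, among the 8, stood at 615.5 to 696.3 CPM in CD4 KO, against 978.4 to 1166.9 CPM in CD4 WT. The DP markers summed to 7788 to 8183 CPM in DP KO, against 12729 to 13917 CPM in DP WT, with 7 of the 8 called lower and 1 higher in DP KO, and the part of this in the DP results was not tested.

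DP WT libraries stood apart in 2 respects. Xist was nearly absent from DP WT replicates 1 and 2 (0.821 and 0.268 CPM) and stood at 189.9 to 611.8 CPM in the other 10 libraries, while the Y-linked Ddx3y was counted in all 12. Low counts were also spread more widely in DP WT: of 1117 olfactory receptor genes, which thymocytes are not known to use, 36.1, 22.2 and 16.4% had a count in DP WT replicates 1, 2 and 3, against 4.3 to 12.3% in the other libraries. In CPM per kb of exon these genes stood at 0.0125 to 0.0215 in DP WT and at 0.00568 to 0.00838 elsewhere. This list was chosen after the data were seen. The part of these differences in the results on DP WT was not tested, and the fold changes of the 9 genes that use DP WT are therefore also given without replicates 1 and 2. The DP WT group is then the lone replicate 3, which is assumed to vary like the other groups, and it held 3 counts of Hhex and none of Erg, so that values for these 2 genes are then no measured size. The Satb1 change in DP cells was then -0.57 (adjusted p = 0.028).

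Kit had the highest level per length of the 9 genes in 3 of the 4 groups. The 9 genes summed to 44.1, 43.1 and 33.9 CPM in CD4 KO, 21.8, 21.1 and 16.7 CPM in CD4 WT, 16.4, 14.4 and 10.7 CPM in DP KO, and 8.61, 7.05 and 7.16 CPM in DP WT. None of these groups overlapped another. Kit made up 60.3 to 75.2% of the sum in CD4 KO, 38.2 to 45.9% in CD4 WT, 52.6 to 75.8% in DP KO and 33.5 to 41.5% in DP WT. Without Kit, the sum of the other 8 was 8.41 to 17.5 CPM in CD4 KO and 9.06 to 13.5 CPM in CD4 WT. It was 2.58 to 6.82 CPM in DP KO and 4.12 to 5.24 CPM in DP WT. KO and WT thus overlapped in both cell types. In CPM per kb of exon, Kit stood at 4.77 in CD4 KO and Lyl1 at 2.82, with the other 7 between 0.0469 (Erg) and 0.582 (Spi1). In DP WT, Lyl1 (0.592 ± 0.174 CPM per kb, SD) and Kit (0.527 ± 0.0884) did not differ beyond their spread, and the other 7 lay between 0.0248 (Erg) and 0.379 (Mpzl2).

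**Figure D1:**
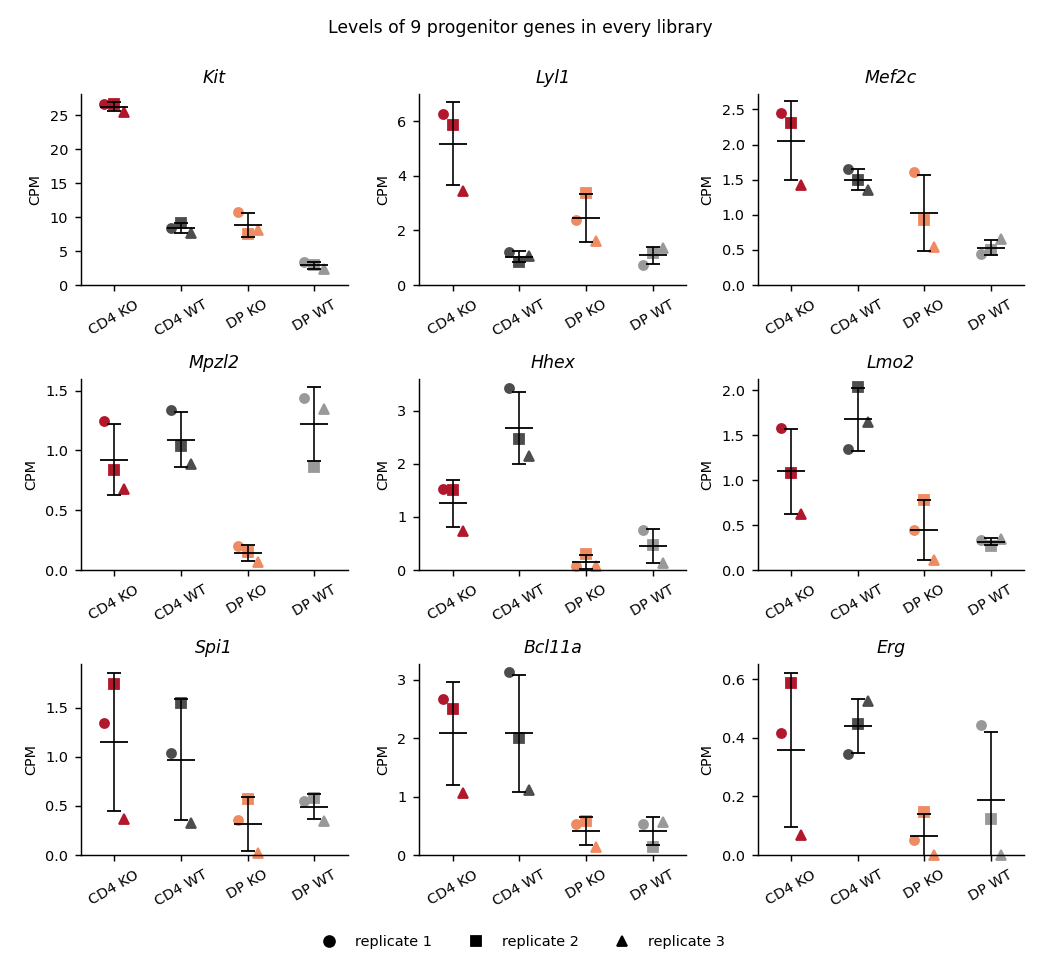
Level of each of the 9 genes in CPM (vertical axes, linear, from 0, a different scale in each panel) in the CD4 KO, CD4 WT, DP KO and DP WT libraries; symbols are replicates, the long bar is the mean and the whiskers are the SD (n = 3). Kit and Lyl1 are highest in CD4 KO, Mpzl2 is low in DP KO alone (0.0705 to 0.203 CPM), and Hhex is highest in CD4 WT (2.14 to 3.43 CPM).

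In CD4 cells, 2 of the 9 genes rose in KO (Kit and Lyl1), 1 fell (Hhex) and 6 were not called. Calls are at an adjusted p under 0.05 in edgeR's quasi-likelihood test, adjusted over all genes tested. Among 17316 genes tested in CD4 cells, 39.5% were called, 20.9% higher and 18.6% lower, so the 33.3% of the 9 is not above the background. In DP cells, 2 rose (again Kit and Lyl1), 1 fell (Mpzl2), 5 were not called and Erg was below the low-count filter. Of 16776 genes tested in DP cells, 30.8% were called, 16.7% higher and 14.1% lower, against 37.5% of the 8 genes tested. The median log2 fold change of the genes tested was -0.03 in CD4 and 0.25 in DP cells, beside 0.002 and 0.007 over all genes tested. The 9 genes did not move as a block: those called went both ways, and 2 of the 4 genes called in a cell type were called in both.

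Kit (chr5:75574987-75656722 of mm10, as are all coordinates here, plus strand), the receptor for stem cell factor and a surface marker of the earliest thymic progenitors, was the member with the most counts. Its level was 26.6, 26.7 and 25.5 CPM in CD4 KO replicates 1, 2 and 3, against 8.34, 9.18 and 7.67 CPM in CD4 WT. It was 10.8, 7.57 and 8.08 CPM in DP KO, against 3.37, 2.93 and 2.40 CPM in DP WT. Within each cell type every KO library was above every WT library, and the DP KO libraries overlapped the CD4 WT libraries. The fold of the means was 3.13 in CD4 and 3.04 in DP cells. The log2 fold change was 1.62 ± 0.10 (SE) in CD4 (adjusted p = 4.01e-06) and 1.54 ± 0.20 in DP cells (adjusted p = 0.000372), and within the 3 labelled batches the log2 ratio of CPM + 0.5 ran from 1.49 to 1.67 in CD4 and from 1.24 to 1.57 in DP cells. Without DP WT replicates 1 and 2 the DP value was 1.82 (adjusted p = 0.0123). The KO effect was larger in CD4 than in DP cells by 0.10 ± 0.21 on the log2 scale, which was not called (adjusted p = 0.779), and this difference was -0.19 without those libraries.

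Lyl1 (chr8:84701423-84704716, plus strand) encodes a helix-loop-helix factor that early T cell progenitors need. It stood at 6.26, 5.85 and 3.44 CPM in CD4 KO, against 1.23, 0.858 and 1.05 CPM in CD4 WT. It stood at 2.37, 3.38 and 1.62 CPM in DP KO, against 0.732, 1.17 and 1.35 CPM in DP WT. KO and WT libraries did not overlap in either cell type, and the CD4 WT and DP WT libraries overlapped each other. The fold of the means was 4.95 in CD4 and 2.26 in DP cells. On the log2 scale the changes were 2.29 ± 0.28 in CD4 (adjusted p = 0.000172) and 1.15 ± 0.34 in DP cells (adjusted p = 0.0294). Batch 3 gave the smallest within-batch log2 ratio in both cell types, 1.34 in CD4 (1.97 and 2.22 in batches 1 and 2) and 0.20 in DP cells (1.22 and 1.21). The DP call depended on single libraries: the adjusted p was 0.0618 without DP KO replicate 1, 0.108 without DP KO replicate 2, 0.104 without DP WT replicate 1, 0.0711 without DP WT replicate 2, and 0.346 (log2 fold change 0.80) without both of the DP WT libraries. The KO effect was larger in CD4 than in DP cells by 1.14 ± 0.46 on the log2 scale, which was not called (adjusted p = 0.0823) but was without DP KO replicate 2 (1.41, adjusted p = 0.0389) or CD4 KO replicate 3 (1.32, adjusted p = 0.0383). It was 1.49 (adjusted p = 0.102) without DP WT replicates 1 and 2.

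Lyl1 shares 5 exon bases with Nfix on the opposite strand, and whether counting used strand is not given in the sources used here. Nfix averaged 12 CPM in CD4 KO and 17 CPM in CD4 WT, and 8.36 CPM in DP KO and 5.36 CPM in DP WT. In KO, Nfix was thus the lower in CD4 cells and the higher in DP cells, where Lyl1 was the higher in both, and its part in the Lyl1 counts was not tested.

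Mpzl2 (chr9:45042344-45054043, plus strand), the adhesion protein, had the largest KO change of the 9 genes, in DP cells. It stood at 0.203, 0.148 and 0.0705 CPM in DP KO (3 to 12 counts a library), against 1.44, 0.866 and 1.35 CPM in DP WT (31 to 65 counts). It stood at 1.25, 0.840 and 0.674 CPM in CD4 KO, against 1.34, 1.04 and 0.889 CPM in CD4 WT. The DP KO libraries lay below all other 9 libraries, and CD4 KO and CD4 WT overlapped. Mpzl2 passed the low-count filter in DP cells only with the DP WT libraries, the higher group. In DP cells the mean was 8.68 times lower in KO (log2 fold change -3.09 ± 0.45, adjusted p = 0.000838), lower in all 3 batches. In CD4 cells the log2 fold change was -0.28 ± 0.33 (adjusted p = 0.553). The difference between the KO effects, CD4 minus DP, was 2.83 ± 0.54 on the log2 scale (adjusted p = 0.00154), and this was the only one of the 9 genes for which it was called. Of 18431 genes tested, 27.8% were called for it, 14.4% higher and 13.4% lower. Without DP WT replicates 1 and 2 the DP value was -3.27 (adjusted p = 0.0268) and the difference 2.99 (adjusted p = 0.00843). Per kb, the mean level of Mpzl2 was 5.64 times that of the olfactory receptor genes in DP KO and 22.0 times theirs in DP WT.

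Hhex (chr19:37434841-37440731, plus strand), a homeobox repressor of blood progenitors, went the other way from Kit and Lyl1 in CD4 cells. It stood at 1.52, 1.5 and 0.744 CPM in CD4 KO, against 3.43, 2.46 and 2.14 CPM in CD4 WT, with no overlap. The mean was 2.13 times lower in CD4 KO (log2 fold change -1.11 ± 0.31, adjusted p = 0.0197), and within batches the log2 ratio was -0.96, -0.56 and -1.09. The call was lost without CD4 WT replicate 1 (-0.89, adjusted p = 0.0898) and in a model over all 12 libraries (adjusted p = 0.078). In DP cells Hhex stood at 0.0676, 0.297 and 0.0705 CPM in DP KO, against 0.754, 0.474 and 0.131 CPM in DP WT, and the groups overlapped. The log2 fold change of -1.73 ± 0.73 was not called (adjusted p = 0.103), and was called without DP KO replicate 2 (-2.77, adjusted p = 0.0399) and in the model over all 12 libraries (-1.76, adjusted p = 0.0456). Without DP WT replicates 1 and 2 it was 0.10 (adjusted p = 0.974), against a library at the floor of 3 counts. Of the 6 CD4 cell markers, Zbtb7b (1.03, 7.21 and 0.258 CPM in DP KO replicates 1, 2 and 3), Cd40lg and Ccr7 were highest in DP KO replicate 2. S1pr1 (8.74, 11.7 and 17.4 CPM), Klf2 (24.0, 32.8 and 94.0 CPM) and Cd4 were highest in DP KO replicate 3. The part of such transcripts in the Hhex level of these libraries was not tested. The KO effect on Hhex in CD4 less that in DP cells was 0.65 ± 0.77 on the log2 scale and was not called (adjusted p = 0.585). The annotation places exons of Hhex, and of Erg, also on a patch or alternate sequence of mm10, so reads may be split and their counts are uncertain. Summed DP markers, given above, were higher in CD4 KO than in CD4 WT and Hhex was lower in DP than in CD4 cells; the part of this in the CD4 result was not tested.

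Mef2c (chr13:83504017-83667079, plus strand), a factor of lymphoid progenitors, was not called in either cell type. It stood at 2.45, 2.30 and 1.42 CPM in CD4 KO, against 1.65, 1.49 and 1.35 CPM in CD4 WT (log2 fold change 0.43 ± 0.26, adjusted p = 0.228). It stood at 1.61, 0.927 and 0.540 CPM in DP KO, against 0.444, 0.495 and 0.655 CPM in DP WT (log2 fold change 0.94 ± 0.44, adjusted p = 0.139). Each pair of groups overlapped through replicate 3 of the KO group, and without DP KO replicate 3 the DP change was called (1.25, adjusted p = 0.0362). It was 0.60 (adjusted p = 0.641) without DP WT replicates 1 and 2. Mef2c shares 464 exon bases with the antisense gene Gm52044, which reached at most 0.488 CPM.

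Lmo2 (chr2:103957903-103981878, plus strand), the partner of LYL1, was not called in either cell type. It stood at 1.58, 1.08 and 0.628 CPM in CD4 KO, against 1.34, 2.03 and 1.65 CPM in CD4 WT (log2 fold change -0.63 ± 0.35, adjusted p = 0.192). It stood at 0.440, 0.779 and 0.117 CPM in DP KO, against 0.333, 0.268 and 0.349 CPM in DP WT (log2 fold change 0.48, adjusted p = 0.598, and 0.31, adjusted p = 0.884, without DP WT replicates 1 and 2). The KO groups spread more widely than the WT groups, on both sides of the WT values in DP cells.

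Spi1 (chr2:91082374-91115759, plus strand), which encodes PU.1, stood at 1.35, 1.74 and 0.372 CPM in CD4 KO and 1.04, 1.55 and 0.329 CPM in CD4 WT. It stood at 0.355, 0.575 and 0.0235 CPM in DP KO and 0.555, 0.577 and 0.349 CPM in DP WT. Replicate 3 was the lowest library in all 4 groups, and the same-numbered KO and WT libraries lay closer together than the libraries of a group in CD4 cells. The KO change was not called in CD4 (log2 fold change 0.21, adjusted p = 0.82) or in DP cells (-0.67, adjusted p = 0.514). The DP value was -0.16 (adjusted p = 0.951) without DP WT replicates 1 and 2.

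Bcl11a (chr11:24076564-24173558, plus strand), the relative of the commitment factor gene Bcl11b, stood at 2.68, 2.50 and 1.07 CPM in CD4 KO and 3.13, 2.00 and 1.12 CPM in CD4 WT. It stood at 0.524, 0.575 and 0.141 CPM in DP KO and 0.532, 0.144 and 0.567 CPM in DP WT. KO and WT overlapped over nearly their whole range, with log2 fold changes of -0.03 in CD4 (adjusted p = 0.965) and 0.02 in DP cells (adjusted p = 0.984). The DP value was -0.49 (adjusted p = 0.758) without DP WT replicates 1 and 2. It shares 273 exon bases with the antisense gene 4930538E20Rik, which reached at most 0.0767 CPM. Per kb, the mean level of Bcl11a was 4.99 times that of the olfactory receptor genes in DP KO and 2.25 times theirs in DP WT.

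Erg (chr16:95359169-95586600, minus strand), an ETS factor of blood stem cells, was the lowest of the 9. It stood at 0.416, 0.586 and 0.0697 CPM in CD4 KO and 0.345, 0.448 and 0.527 CPM in CD4 WT (log2 fold change -0.27, adjusted p = 0.768). In DP KO it had 11 counts in all, with none in replicate 3, and in DP WT 26 counts, with none in replicate 3. The floor of 3 counts corresponds to 0.0705 CPM in DP KO replicate 3 and 0.131 CPM in DP WT replicate 3. Per kb, the mean level of Erg was 1.12 times that of the olfactory receptor genes in DP KO and 1.44 times theirs in DP WT, so its mean level in DP cells was close to that of genes not known to be used there.

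**Figure D2:**
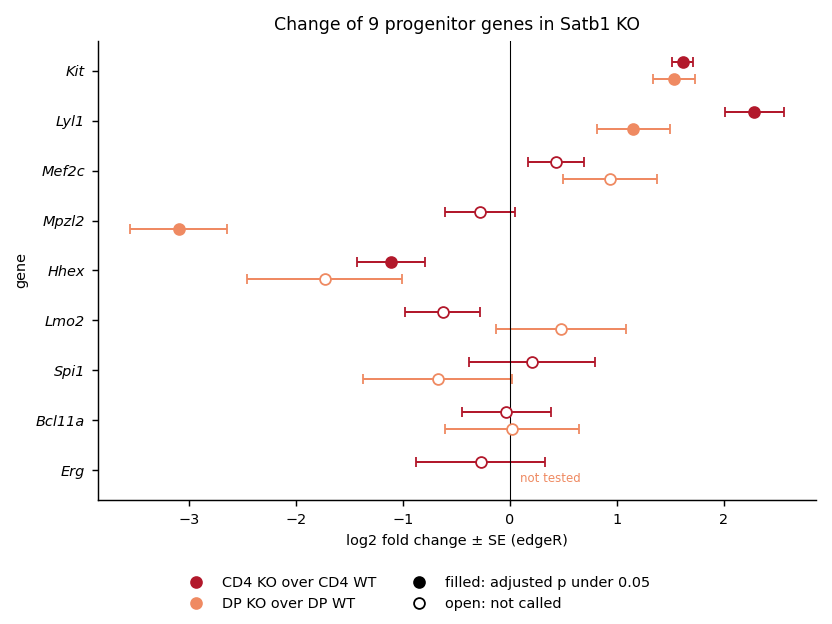
Log2 fold change of KO over WT (horizontal axis, edgeR estimate, whiskers are the SE) for each gene in CD4 cells (dark red, upper of each pair) and DP cells (orange, lower); filled points passed an adjusted p under 0.05 and open points did not. Kit and Lyl1 lie right of 0 in both cell types, Mpzl2 lies far left in DP cells alone (-3.09), and Hhex lies left of 0.

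The comparison of cell types asks how the 9 genes stood in CD4 cells, the later stage, against DP cells. In WT thymocytes, 5 of the 9 were higher in CD4 than in DP cells and 0 were called lower by edgeR, DESeq2 or limma-voom, or at an unadjusted p under 0.05 in edgeR. Of 17369 genes tested, 55% were called, 28% higher and 27.1% lower, so the 55.6% of the 9 is close to the background, while all 5 calls were in 1 direction. The 4 genes not called were Lyl1 (-0.06), Mpzl2 (-0.17), Erg and Spi1, and the median log2 fold change of the 9 was 1.49, beside 0.004 over all genes. Hhex (0.131 CPM in DP WT replicate 3), Bcl11a (0.144 CPM in DP WT replicate 2) and Erg (0 in DP WT replicate 3) passed the low-count filter only with CD4 WT libraries. The count of 5 and the median thus rest in part on genes that were tested because they were higher in CD4 WT. The estimate for Hhex was 2.43 ± 0.43 (adjusted p = 0.000864), with a mean 5.91 times higher in CD4 WT. Lmo2 was at 2.39 ± 0.34 (adjusted p = 0.00018), then Bcl11a at 2.38 ± 0.52 (adjusted p = 0.00323), Mef2c at 1.5 ± 0.31 (adjusted p = 0.00209) and Kit at 1.49 ± 0.17 (adjusted p = 3.84e-05). For each of these 5 every CD4 WT library was above every DP WT library, and the share of all genes for which this holds was not counted. All 5 were thus higher in each of the 3 batches, as were 39.4% of all genes tested, with 35.4% lower in each. Without DP WT replicates 1 and 2, Kit (1.79), Hhex (4.31) and Lmo2 (2.23) kept an adjusted p under 0.05, while Mef2c (1.18, adjusted p = 0.073) and Bcl11a (1.87, adjusted p = 0.0625) did not. The spread then comes from the CD4 WT libraries alone, and the Hhex value stands against a DP WT library at the floor of 3 counts. Lyl1 (-0.39), Mpzl2 (-0.32) and Spi1 (1.49) were not called in that fit either. Erg was then called at 7.12 (adjusted p = 0.0214) against a lone DP WT library with no Erg count, so that this value is no measured size. Erg was also called without DP WT replicate 1 (2.42, adjusted p = 0.038), and Spi1 without CD4 WT replicate 3 (1.33, adjusted p = 0.0163). Cell type and deposited table are the same split, so a difference between the tables and a difference between the cell types cannot be told apart.

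In KO thymocytes, 5 of the 8 genes tested were higher in CD4 than in DP cells and 0 were called lower by edgeR, DESeq2 or limma-voom, or at an unadjusted p under 0.05 in edgeR. Of 16910 genes tested, 21.7% were called, 13.9% higher and 7.82% lower, against 62.5% of the 8. The median log2 fold change was 1.73 for the 8 and 0.001 for all genes tested. The low-count filter asks for a set CPM in 3 libraries. Hhex, Lmo2, Spi1, Bcl11a and Mpzl2 had 0.0235 to 0.141 CPM (1 to 6 counts) in DP KO replicate 3, so they passed only with CD4 KO libraries. The 62.5% and the median of 1.73 thus rest in part on genes that were tested because they were high in CD4 KO. Kit (1.61 ± 0.14, adjusted p = 0.000159), Hhex (3.11 ± 0.58, adjusted p = 0.00665) and Bcl11a (2.33 ± 0.51, adjusted p = 0.0136) were called as in WT cells. Mpzl2 (2.68 ± 0.46, adjusted p = 0.00424) and Lyl1 (1.11 ± 0.31, adjusted p = 0.0359) were called in KO cells, and Mef2c, Lmo2 and Spi1 were not (adjusted p = 0.104 for Mef2c, 0.155 for Lmo2 and 0.13 for Spi1). All 9 genes were higher in CD4 KO than in DP KO in each of the 3 batches, as were 29.4% of all genes tested, with 35.9% lower in each. With the replicate number as a block, all 8 genes tested were called higher, beside 20.4% of all genes called higher and 17.6% lower in that fit (38% in all), with adjusted p = 0.00779 for Mef2c, 0.0253 for Lmo2 and 0.00399 for Spi1. The 8 had passed the same filter, so this count too rests in part on genes tested because they were high in CD4 KO. The Lyl1 call was lost without DP KO replicate 1 (adjusted p = 0.114), DP KO replicate 3 (0.062), CD4 KO replicate 1 (0.136) or CD4 KO replicate 2 (0.124), and the Bcl11a call without CD4 KO replicate 1 (0.0573) or 2 (0.0547). Mef2c was called without DP KO replicate 1 (adjusted p = 0.044) and in the model over all 12 libraries (adjusted p = 0.047), and Spi1 without CD4 KO replicate 3 (adjusted p = 0.046). Among the 9 genes, the difference of this cell type contrast between KO and WT is the interaction given above, and it was called for Mpzl2 alone.

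**Figure D3:**
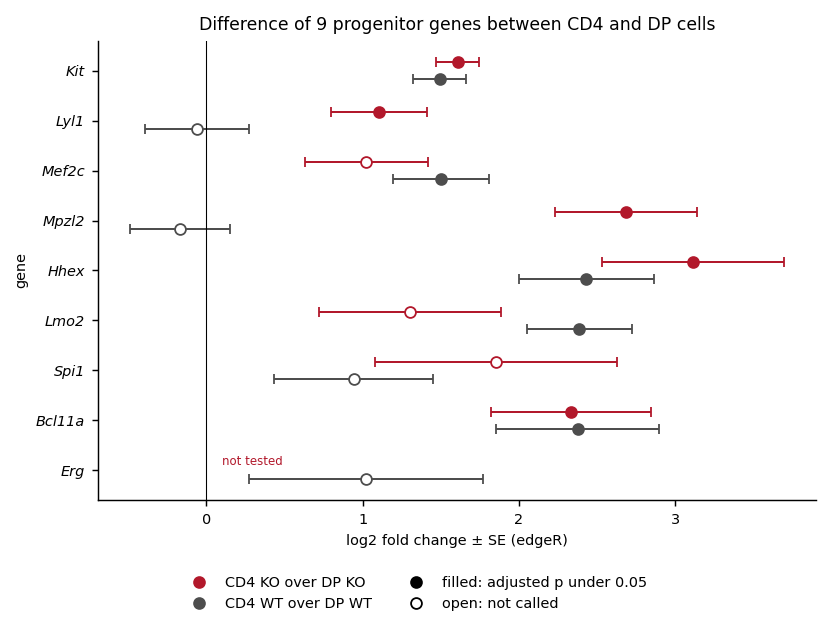
Log2 fold change of CD4 over DP cells (horizontal axis, edgeR estimate, whiskers are the SE) for each gene in KO (dark red, upper of each pair) and WT thymocytes (grey, lower); filled points passed an adjusted p under 0.05. Kit, Hhex and Bcl11a are filled on both rows, while Mpzl2 lies at 2.68 in KO and -0.17 in WT.

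The wider set of markers was read because several of the 9 genes are also used by B, myeloid and dendritic cells. In bulk RNA, fewer cells of a type and less RNA per cell cannot be told apart. Summed over 10 genes, the myeloid markers stood at 40.1 to 81.3 CPM in CD4 KO, 40.8 to 83.7 CPM in CD4 WT, 15.7 to 30.2 CPM in DP KO and 23.5 to 33.5 CPM in DP WT. Summed over 10 genes, the dendritic cell markers stood at 102.9 to 152.1 CPM in CD4 KO, 84.3 to 165.8 CPM in CD4 WT, 67.4 to 92.8 CPM in DP KO and 60.5 to 93.5 CPM in DP WT. Within KO and within WT both sums were higher in CD4 than in DP cells without overlap, with 1 exception. The dendritic cell sum of CD4 WT replicate 3 (84.3 CPM) lay below that of DP WT replicate 1 (93.5 CPM). It also lay below DP KO replicate 2 (92.8 CPM). Cst3 made up most of the dendritic cell sum in every DP library and was higher in DP than in CD4 cells. It stood at 60.7 to 71.1 CPM in DP KO, against 48.0 to 54.7 CPM in CD4 KO. Cst3 was at 60.8 CPM in DP WT replicate 1 and 33.7 CPM in CD4 WT replicate 3. In the same order, Cd74 was at 18.3 and 31.8 CPM, and H2-Aa at 8.83 and 6.88 CPM. Of the 9 genes, Kit, Hhex and Bcl11a were called higher in CD4 than in DP cells in both KO and WT. Mef2c and Lmo2 were so called in WT alone, Lyl1 and Mpzl2 in KO alone, and Spi1 in neither. Erg was not called in WT and not tested in KO. Replicate 3 was the lowest library for both sums in each of the 4 groups, as it was for Spi1. In WT cells, 7 of 8 dendritic cell, 6 of 8 myeloid and 4 of 8 B cell markers tested were called higher in CD4 than in DP cells and 1 of each list lower, beside 28% higher and 27.1% lower of all genes. In KO cells 6 dendritic cell, 6 myeloid and 4 B cell markers of 8 each were called higher, and 1 dendritic cell, 0 myeloid and 1 B cell marker lower, beside 13.9% and 7.82% of all genes. Between KO and WT, edgeR called 0 of 9 myeloid markers tested in CD4 cells (0 also at an unadjusted p under 0.05) and 1 of 8, lower, in DP cells. Of the dendritic cell markers it called 1 of 9, higher, in CD4 cells and 0 of 8 in DP cells (1 at an unadjusted p under 0.05). Their part in the difference of Spi1, Bcl11a, Lmo2, Mef2c and Hhex between cell types was not tested.

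The 8 B cell markers summed to 25.8 to 36.1 CPM in CD4 KO, 8.23 to 22.5 CPM in CD4 WT, 22.3 to 28.6 CPM in DP KO and 17.7 to 21.9 CPM in DP WT. Cd79b made up 17.4 to 17.7 CPM in CD4 KO, 1.81 to 4.99 CPM in CD4 WT, 20.2 to 24.1 CPM in DP KO and 13.4 to 15.9 CPM in DP WT. Kit also marks mast cells, and the 6 mast cell and basophil markers summed to 0.186 to 0.645 CPM in CD4 KO, 0.403 to 0.448 CPM in CD4 WT, 0.0371 to 0.152 CPM in DP KO and 0.222 to 0.393 CPM in DP WT, with Fcer1a at 0 in all libraries of CD4 KO, CD4 WT and DP KO. Erythroid markers, 7 genes, were lowest in replicate 3 of each group and ran from 49.5 to 225.7 CPM in CD4 KO, 23.1 to 138.3 CPM in CD4 WT, 69.2 to 335.7 CPM in DP KO and 26.2 to 195.1 CPM in DP WT. The 6 innate lymphoid and NK markers summed to 36.8 to 76.3 CPM in CD4 KO, 52.0 to 67.2 CPM in CD4 WT, 31.4 to 50.9 CPM in DP KO and 7.6 to 8.58 CPM in DP WT, most of it Rora. The NK gene Ncr1 was at or below 0.444 CPM in every library. The 6 markers of stroma and epithelium stood at 18.0 to 23.0 CPM in CD4 KO, 5.92 to 6.79 CPM in CD4 WT, 12.2 to 16 CPM in DP KO and 8.12 to 9.6 CPM in DP WT. Pdgfrb made up 10.9 to 16.6 CPM of it in the KO libraries, and the thymic epithelial gene Foxn1 did not exceed 0.289 CPM. The part of these other cells in the KO effects was not tested. Endothelial markers (6 genes) were nearly all Pecam1, with Emcn at 0 in CD4 KO, CD4 WT and DP KO, and of the gamma-delta markers 3 of 6 were in the tables, with Trdc at 0 throughout.

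**Figure D4:**
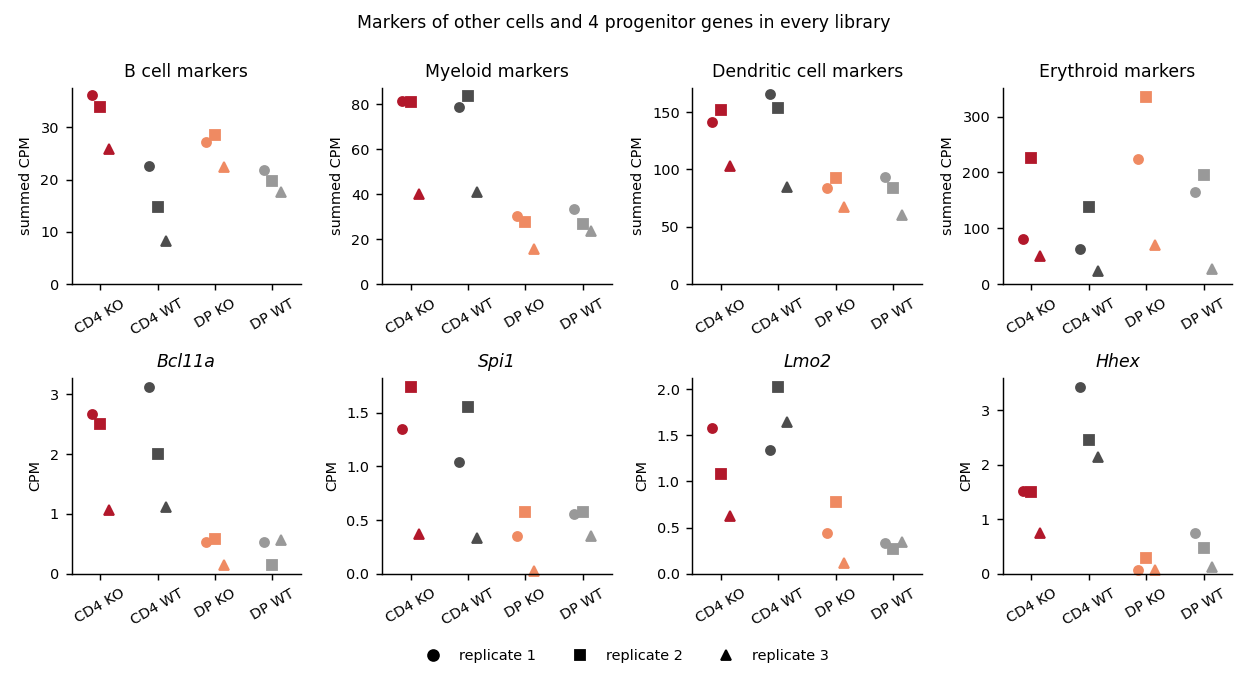
Summed CPM of B cell, myeloid, dendritic cell and erythroid markers (upper row) and CPM of Bcl11a, Spi1, Lmo2 and Hhex (lower row) in every library; vertical axes are linear and start at 0, and symbols are replicates. The myeloid and dendritic cell sums and Spi1 are lowest in replicate 3 of each group, and Spi1 reaches 1.74 CPM in CD4 KO and 0.577 CPM in DP WT.

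Other genes of the progenitor state were taken from a list of 18, of which 12 passed the low-count filter in each cell type. In CD4 cells 6 rose and 1 fell (Bmi1), and in DP cells 7 rose and 2 fell (Cebpa and Id1), with median log2 fold changes of 0.64 in CD4 and 0.57 in DP cells, beside 0.00 and 0.01 over all genes tested. These calls are 58.3% of the 12 in CD4 and 75% in DP cells, beside 39.5% of all genes in CD4 (20.9% higher and 18.6% lower) and 30.8% in DP cells (16.7% higher and 14.1% lower). Hlf, a leucine-zipper factor of blood stem cells, had the largest rise, at 29.9 ± 9.84 CPM in CD4 KO and 0.679 ± 0.156 CPM in CD4 WT (SD) (log2 fold change 5.40 ± 0.28, adjusted p = 1.87e-06). In DP KO it was at 25.8 ± 3.81 CPM, against 0.828 ± 0.141 CPM in DP WT (log2 fold change 4.94 ± 0.18, adjusted p = 2.07e-07). Mycn, a MYC family factor, had 20.7 CPM in CD4 KO and 1.07 CPM in CD4 WT (log2 fold change 4.23). It had 29.2 CPM in DP KO and 7.98 CPM in DP WT (1.82). Hoxa7, a homeobox gene of blood progenitors, had 6.06 CPM in CD4 KO and 1.12 CPM in CD4 WT (2.40). It had 7.37 CPM in DP KO and 1.83 CPM in DP WT (1.95). Tal1, Gata2, Gfi1b, Meis1, Hoxa9 and Cd34, all of the stem cell state, had too few counts to be tested, with group means of at most 0.223 CPM. Flt3, the cytokine receptor of lymphoid progenitors, was not called in either cell type (adjusted p = 0.488 in CD4 and 0.114 in DP cells).

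**Figure D5:**
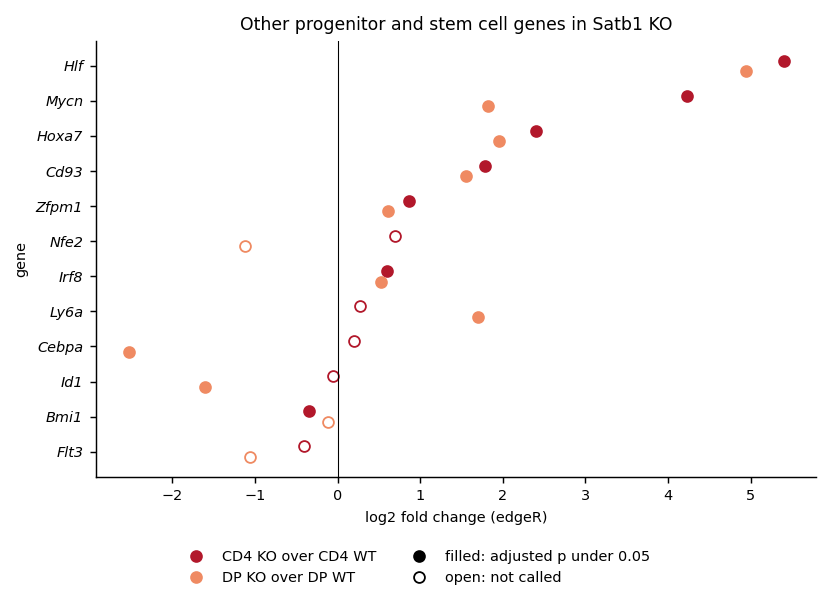
Log2 fold change of KO over WT (horizontal axis, edgeR estimate) of the 12 tested genes of the wider progenitor list in CD4 cells (dark red) and DP cells (orange); filled points passed an adjusted p under 0.05. Hlf lies at 5.40 and 4.94, and Mycn and Hoxa7 lie right of 0 in both cell types.

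The factors that carry out commitment went both ways. Of 14, 5 rose and 5 fell in CD4 KO cells, and 2 rose and 5 fell in DP KO cells, with median log2 fold changes of 0.06 in CD4 and -0.13 in DP cells. The share called was 71.4% in CD4 and 50% in DP cells, beside 39.5% of all genes in CD4 and 30.8% in DP cells. Myb stood at 427.7 ± 34.5 CPM in CD4 KO and 126.4 ± 8.75 CPM in CD4 WT (log2 fold change 1.74), but at 675.2 ± 21.8 CPM in DP KO and 1191 ± 80.0 CPM in DP WT (-0.87). Ikzf1, which encodes Ikaros, fell in both cell types, by 0.76 in CD4 and by 0.79 in DP cells on the log2 scale. Gata3 rose in both, with 360.2 ± 28.6 CPM in DP KO and 108.4 ± 3.99 CPM in DP WT. Bcl11b, the paralog of Bcl11a, fell in CD4 cells and was not called in DP cells.

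The partners of LMO2 and LYL1 gave 7 higher and 2 lower of 9 tested in CD4 cells, and 2 higher and 2 lower of 9 in DP cells, with median log2 fold changes of 0.31 in CD4 and -0.07 in DP cells. All 9 were thus called in CD4 cells and 44.4% in DP cells, beside the same 39.5% and 30.8% of all genes. Cbfa2t3, a corepressor of the LYL1 and TAL1 complexes, stood at 55.2 ± 6.09 CPM in CD4 KO and 11.2 ± 0.938 CPM in CD4 WT (log2 fold change 2.27 ± 0.11, adjusted p = 1.23e-06), and it fell in DP cells. Ldb1, the scaffold that LMO2 binds, fell by 0.61 on the log2 scale in CD4 cells. Among paralogs of the 9 genes, 2 rose and 3 fell of 11 tested in CD4 cells, and 3 rose and 3 fell of 10 in DP cells, with medians of -0.32 in CD4 and -0.29 in DP cells. That is 45.5% called in CD4 and 60% in DP cells. Lmo4, a relative of Lmo2, stood at 448.5 ± 112.1 CPM in CD4 KO and 64.7 ± 4.6 CPM in CD4 WT. It stood at 913.2 ± 112.3 CPM in DP KO and 64.9 ± 6.94 CPM in DP WT, with log2 fold changes of 2.77 in CD4 and 3.77 in DP cells. Pdgfrb, a receptor kinase of the same class as KIT, stood at 13.0 CPM in CD4 KO and 1.17 CPM in CD4 WT, and at 12.2 CPM in DP KO and 3.57 CPM in DP WT. Mpzl3, a relative of Mpzl2, stood at 11 CPM in CD4 KO and 20.8 CPM in CD4 WT (log2 fold change -0.94) and was also called lower in DP cells.

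A further list of genes used in the DN stages, not all of them after commitment, was called higher for 6 and lower for 1 (Cd44) of 10 tested in CD4 cells. It was called higher for 3 and lower for 2 (Ptcra and Cd44) of 9 in DP cells, with medians of 0.87 in CD4 and -0.07 in DP cells. The share called was 70% in CD4 and 55.6% in DP cells, beside 39.5% of all genes in CD4 and 30.8% in DP cells. Il2ra, the interleukin receptor chain that marks committing DN cells, stood at 241.5 ± 56.9 CPM in CD4 KO and 35.0 ± 5.86 CPM in CD4 WT (log2 fold change 2.76), and at 414.6 ± 49.1 CPM in DP KO and 12.2 ± 5.46 CPM in DP WT (5.07). Il7r, the receptor for a cytokine that DN cells need, rose in DP cells (4.16), to 151.3 CPM in DP KO, against 8.13 CPM in DP WT. It is not confined to DN cells: it stood at 482.7 CPM in CD4 KO and 469.2 CPM in CD4 WT and was not called there. Ptcra, which encodes the pre-T cell receptor alpha chain, fell in DP cells, to 5.84 ± 1.18 CPM in KO, against 32.7 ± 1.5 CPM in WT, and was called higher in CD4 cells. Genes of KIT signalling, the ligand gene Kitl included, gave 2 higher and 7 lower of 15 tested in CD4 cells, and 5 higher and 4 lower of 14 in DP cells, with medians of -0.17 in CD4 and -0.00 in DP cells, or 60% called in CD4 and 64.3% in DP cells. Fyn, a kinase, fell by 0.95 on the log2 scale in CD4 cells. Socs1, a feedback inhibitor, stood at 56.5 ± 11.1 CPM in DP KO and 136.6 ± 17.4 CPM in DP WT.

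For genes whose group means spanned at least 2 log2 units, the 3 genes with the most similar profile over the 12 libraries were sought among 14052 named genes, by the root mean square difference of centred log2 CPM. Only Kit (2.99) and Hhex (2.30) spanned that range. Closest to Kit were Hip1r (0.301), Irak3 (0.316) and Armcx4 (0.323). Hip1r stood at 71.4 CPM in CD4 KO, 22.5 CPM in CD4 WT, 20 CPM in DP KO and 11.6 CPM in DP WT. Closest to Hhex were Cotl1 (0.243), Trf (0.246) and Cdc42bpb (0.266), and Cotl1 stood at 240.0 CPM in CD4 KO, 439.4 CPM in CD4 WT, 91.0 CPM in DP KO and 119.9 CPM in DP WT.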

How the data were processed

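Counts are as the authors deposited them: raw reads per gene, in a CD4 and a DP table of 6 poly(A) libraries each, from paired reads per the labels' protocols. The submitters' processing notes list Subread 1.0.1, R 4.1.5, DESeq2 and the build mm10 without saying what each did; the strand setting is not given in the sources used here. No per-library column was left out, and coordinates are those of the DP table. Counts were tested with edgeR 4.0.16 in R 4.3.3 (quasi-likelihood test, TMM, filterByExpr with a minimum count of 10, Benjamini-Hochberg adjustment over all genes tested, called under 0.05), after a check on simulated data. KO was compared with WT, and CD4 with DP, in the 6 libraries concerned, and the interaction used all 12. SE is the size of the log2 fold change over the root of its F statistic. Within-batch log2 ratios and profiles use log2(CPM + 0.5).

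All 9 genes are named. From each further list the counts by direction and up to 3 called genes with the smallest adjusted p were due; Bcl11b, Flt3, the genes below the filter, the other values of genes named in a single comparison, and genes listed by direction of call were chosen after their values were seen. The 9 genes, the lists and the tests were chosen with earlier results of these data known. Replicate numbers equal the labelled batch, but the labels do not say that same-numbered libraries share a mouse. Xist was at 0.821 and 0.268 CPM in DP WT replicates 1 and 2 and at 333.9 and 284.2 CPM in CD4 WT replicates 1 and 2. Deviations of same-numbered libraries correlated at 0.116 to 0.342 in CD4, -0.005 to 0.176 in DP, 0.148 to 0.265 in WT and 0.225 to 0.485 in KO comparisons. Alternatives were DESeq2 size factors, DESeq2 1.42.0, limma-voom (limma 3.58.1), other low-count filters, 1 model over all libraries, a replicate block, each library left out, and DP WT replicates 1 and 2 left out. Figures used matplotlib 3.10.9 and Python 3.11.15.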

Additional observations from a re-analysis of the deposited data

Results flagged for a closer look

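The KO effect on Mpzl2 differed between the cell types. The CD4 effect less the DP effect was 2.83 on the log2 scale (SE 0.54, adjusted p = 0.00154, edgeR interaction over 12 libraries), with Mpzl2 lower in KO in all 3 batches of both cell types and KO and WT apart in DP cells alone. The counts behind it were low, 3 to 12 a library in DP KO and 31 to 65 in DP WT.

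For Spi1, same-numbered KO and WT libraries moved in opposite directions in the 2 cell types. KO was above WT in 3 of 3 batches in CD4 cells (within-batch log2 ratios of 0.27, 0.13 and 0.07) and below WT in 3 of 3 batches in DP cells (-0.30, -0.00 and -0.70, the middle one with 0.575 CPM in DP KO and 0.577 CPM in DP WT). The last of these stood on 1 count in DP KO and 8 counts in DP WT. Of all genes tested, 36.1% were higher in KO in all 3 batches in CD4 cells, and 24.7% were lower in all 3 in DP cells. The difference between the KO effects on Spi1, CD4 minus DP, was 0.89 on the log2 scale and was not called (adjusted p = 0.567, edgeR interaction).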

How the results depend on the processing

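Over all alternatives run, 568 of 630 values of single genes kept their direction and their side of the threshold, 15 lost the call, 18 gained it and 29 changed sign, none of the last called in the fit reported. Kit in all 4 pairwise comparisons, Lyl1 in CD4 cells, Hhex between cell types in WT and in KO, Lmo2 between cell types in WT, and Mpzl2 in DP cells, in KO cells between cell types and in the interaction, were called under every alternative. A model over all 12 libraries gave 2 genes lower in DP (Hhex gained the call) and 0 lower in CD4 KO cells (Hhex lost it). Without DP WT replicates 1 and 2, 1 gene was higher in DP KO, and the signs changed for Hhex (0.10) and Bcl11a (-0.49) in DP cells and, for the interaction, for Kit (-0.19), Hhex (-1.21), Erg (-5.00) and Bcl11a (0.45); the lone DP WT library then held 3 Hhex and 0 Erg counts, so that these values of Hhex and Erg are no measured size. Over all genes, that setting gave 1089 higher and 818 lower in DP cells (2805 and 2362 in the fit reported), 1741 and 1600 for the interaction (2649 and 2467), and 3114 lower in CD4 WT cells (4702). With no low-count filter, 2 genes were called for the interaction, 9 were higher in CD4 KO than in DP KO, and the sign of Lyl1 in WT cells changed (0.005). DESeq2 size factors (-0.002) and the DESeq2 Wald test (-0.042) turned the sign of Bcl11a in DP cells. With the replicate block, 8 genes were higher in CD4 KO than in DP KO, beside 3444 of all genes higher (2348 without it) and 2976 lower (1323); the block changed no other call of the 9 genes. Leaving out single libraries, the genes called ranged from 1 to 3 higher and 1 to 2 lower in DP KO, 2 to 2 higher and 0 to 1 lower in CD4 KO, 1 to 2 for the interaction, 5 to 6 in WT and 3 to 7 in KO between cell types. Signs changed, over values of -0.17 to 0.92 for Lmo2 and -0.46 to 0.42 for Bcl11a in DP; -0.19 to 0.69 for Spi1, -0.82 to 0.19 for Erg and -0.30 to 0.38 for Bcl11a in CD4; -0.056 to 0.24 for Kit, -0.11 to 2.48 for Erg and -0.48 to 0.38 for Bcl11a in the interaction; and -0.29 to 0.11 for Lyl1 in WT. Except where fewer libraries or another gene set was used, the cause was not tested. Depth limits Erg, Spi1, Lmo2, Bcl11a, Hhex and Mpzl2 in DP cells most, where some libraries held 0 to 8 counts.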
